A study of Cricetulus griseus with 19 samples.

Results

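DNA repair and damage signalling were followed through 7 genes, Parp1, Xrcc1, Apex1, Ercc1, Ercc4, Xrcc5 and Atr. They were taken by name: a transcript target belonged to the set when its RefSeq accession matched one of these symbols, and the rule uses no measured value. All 7 were found, 1 target each, among 46718 targets in all, of which 528 matched a symbol. The cells were Paradaux, a line derived from CHO-K1 (adherent cells first grown from Chinese hamster ovary), and were built to carry a synthetic circuit for the control of its own cell number. The series holds 7 libraries of long-term cultures under paradoxical feedback, 7 under negative feedback, 4 of uncontrolled growth and 1 of the parental cells. In background terms, negative feedback lets a signal made by the cells limit their growth, and under paradoxical feedback that signal drives proliferation as well as killing. The labels give a culture condition and a replicate number and no length of culture, clone or passage.

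The 7 genes belong to several repair routes. PARP1 detects strand breaks and builds poly(ADP-ribose) chains that draw in XRCC1, a scaffold for single-strand break repair, and APEX1 cuts the DNA backbone at sites that have lost their base. ERCC1 and ERCC4 (XPF) form one endonuclease that cuts beside bulky lesions in nucleotide excision repair. XRCC5 (Ku80) holds broken ends for end joining, and ATR is the kinase that responds to single-stranded DNA and stalled replication. Many genes with XRCC and ERCC in their names were identified through repair-deficient Chinese hamster cells, most of them ovary lines.

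Each library held between 9.91 and 13.2 M estimated counts. Some libraries stood apart. The share of counts on targets shorter than 800 nt was 8.50 to 12.4% under paradoxical feedback, 14.1% and 13.3% in the first 2 negative feedback cultures, 6.12 to 7.22% in the other 5 (cultures 3 to 7), 12.2 to 13.4% in uncontrolled cultures and 11.8% in the parental library. The group means of this share differed by -2.81 percentage points between paradoxical feedback and uncontrolled cultures (exact two-sided permutation test, p = 0.0121, adjusted over 3 pairs p = 0.0364), and by -4.36 points between negative feedback and uncontrolled cultures (adjusted p = 0.118 by the same exact permutation test). Along principal component 1 (33.2% of the variance) negative feedback cultures 3 to 7 lay at 158 to 221 and cultures 1 and 2 at -161 and -141, beside the uncontrolled cultures at -169 to -122. Fold changes of negative feedback over uncontrolled cultures are therefore given with and without cultures 3 to 7. Without cultures 3 to 7 only negative feedback cultures 1 and 2 remain, set apart from these same data. A call lost in that fit is therefore no independent test. None of the 23 marker genes listed for CHO-K1 or other cell types matched a symbol, so the labelled cell line was not checked by markers.

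Levels are given in CPM, counts scaled to a common total of the normalised library size. Each log2 fold change has the fit's standard error (SE), and adjusted p-values come from edgeR's quasi-likelihood test with Benjamini-Hochberg adjustment over 28555 tested targets, all 7 genes among them. A gene was called changed at an adjusted p under 0.05. Apex1 and Xrcc5 have shared reads, meaning that part of their reads also matched other targets and was divided among them, so their levels are less certain. The other 5 had whole counts throughout.

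Per unit length the 7 genes spanned a wide range. In TPM, which corrects for length, Ercc1 averaged 95.2 over the 19 libraries, Parp1 61.0, Xrcc1 38.8, Apex1 31.6, Xrcc5 17.0, Atr 8.52 and Ercc4 2.68. Ercc1 stood at percentile 94.5 of the tested targets and Ercc4, its partner in the nuclease, at percentile 47.7.

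**Figure D1:**
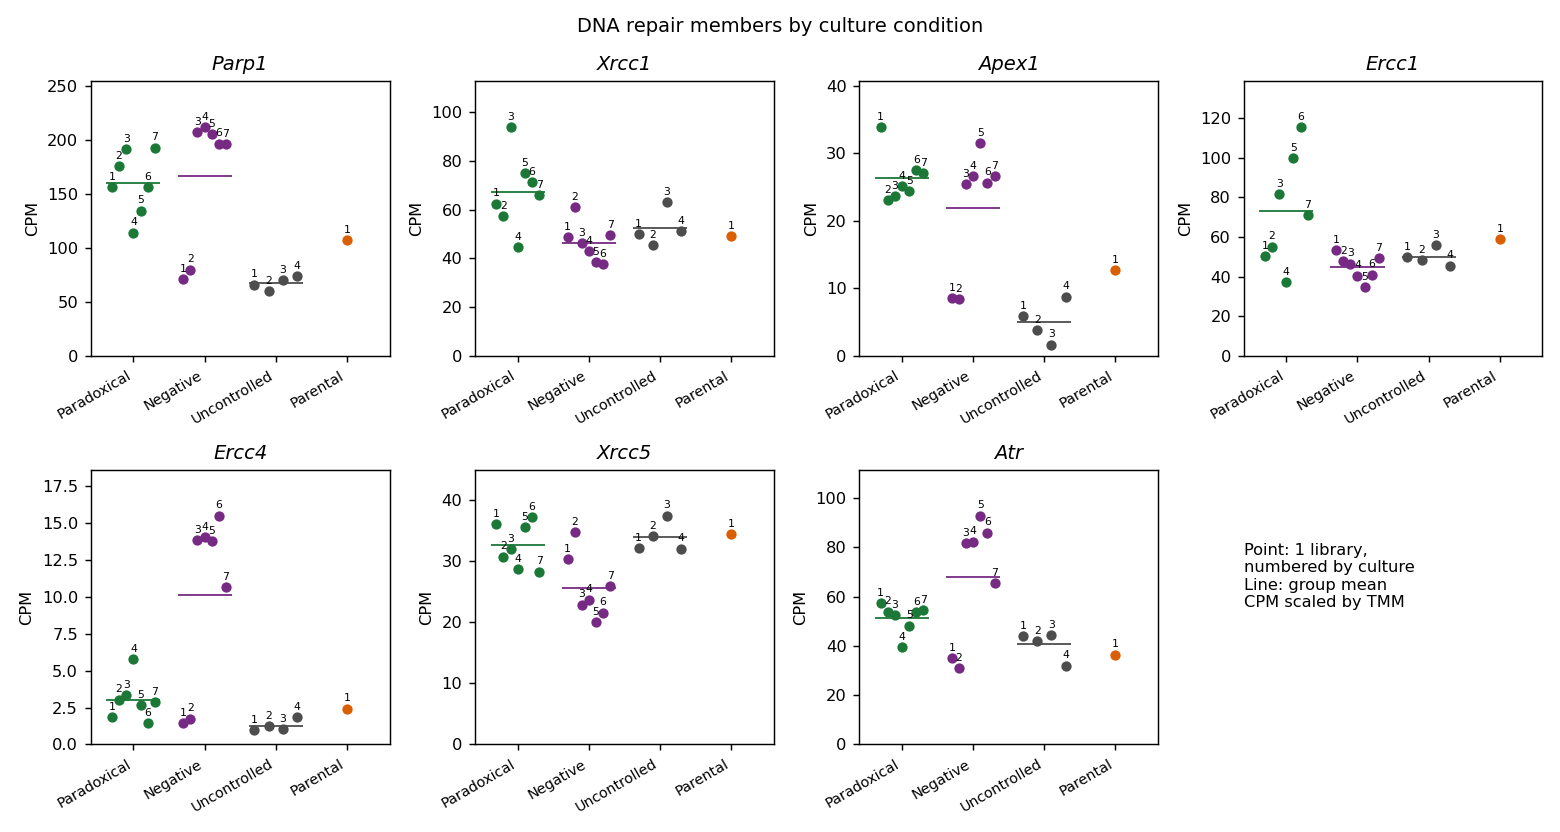
CPM of each of the 7 repair genes (vertical axes) in every library, by culture condition (horizontal axes), each point 1 library. Parp1 and Apex1 lay higher in all 7 paradoxical feedback cultures than in all 4 uncontrolled cultures, and negative feedback cultures 1 and 2 stood apart from cultures 3 to 7 for Parp1, Apex1, Ercc4 and Atr.

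Parp1 and Apex1 rose in both feedback conditions relative to uncontrolled growth, and Ercc4 rose under negative feedback. The 3 negative feedback calls were lost without cultures 3 to 7. For negative feedback against uncontrolled cultures, the fit without cultures 3 to 7 called 0 of the 7 genes and 13 of 27303 tested targets. It keeps only negative feedback cultures 1 and 2, which these same data place beside the uncontrolled cultures. All 3 calls were also lost when only the groups compared were fitted (edgeR adjusted p = 0.0798 for each). That fit called 10 of 23063 tested targets. Called higher were 3 of the 7 genes in negative feedback against uncontrolled cultures, where 8.65% of all tested targets and 28.2% of 284 named protein-coding targets were called higher. In paradoxical feedback against uncontrolled cultures 2 of the 7 were called higher, against 4.93% of all tested targets and 19.7% of the named ones. No gene of the 7 was called lower in either comparison, where 1.11% and 1.5% of all tested targets were. Both comparisons use the same 4 uncontrolled cultures. No gene of the 7 had all 7 negative feedback cultures above or below all 4 uncontrolled ones, against 1.72% and 2.23% of the tested targets. In these bulk libraries a smaller share of cells carrying a transcript and less of it per cell cannot be told apart.

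Parp1, the break sensor, had 156, 176, 192, 114, 135, 156 and 193 CPM in paradoxical feedback cultures 1 to 7. Under negative feedback it had 71.3 and 79.9 CPM in cultures 1 and 2 and 208, 212, 206, 197 and 196 CPM in cultures 3 to 7. The uncontrolled cultures had 65.9, 59.7, 69.9 and 73.9 CPM and the parental library 107 CPM. All 7 paradoxical feedback cultures lay above all 4 uncontrolled cultures, as in 8.15% of the tested targets, and 6 of 7 negative feedback cultures did. Culture 1 of negative feedback fell within the uncontrolled range, and the parental library lay between the uncontrolled and the paradoxical feedback cultures.

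The fold change of Parp1 was 1.25 ± 0.28 on the log2 scale in paradoxical feedback against uncontrolled cultures (SE, edgeR adjusted p = 0.0206). In negative feedback against uncontrolled cultures it was 1.31 ± 0.28 (SE, edgeR adjusted p = 0.0236). Without negative feedback cultures 3 to 7 the paradoxical feedback value was 1.26, still called, whereas the negative feedback value was 0.17 (edgeR adjusted p = 1.00). Leaving out any 1 uncontrolled culture ended both calls, with adjusted p-values in edgeR of 0.0510 to 0.0740 for paradoxical and 0.0525 to 0.0774 for negative feedback. With the share of short targets as a covariate, edgeR gave 0.73 (adjusted p = 0.00908) for paradoxical and 0.39 (adjusted p = 0.640) for negative feedback.

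Apex1, the abasic site endonuclease, was likewise lowest in the uncontrolled cultures, at lower levels than Parp1. It had 33.9, 23.0, 23.6, 25.2, 24.4, 27.5 and 27.0 CPM in the paradoxical feedback cultures. Negative feedback cultures 1 and 2 had 8.59 and 8.43 CPM, and cultures 3 to 7 had 25.4, 26.6, 31.5, 25.7 and 26.6 CPM. The uncontrolled cultures had 5.85, 3.76, 1.65 and 8.78 CPM, and the parental library had 12.7 CPM. Paradoxical feedback and uncontrolled cultures did not overlap, and negative feedback cultures 1 and 2 fell inside the uncontrolled range while cultures 3 to 7 lay among the paradoxical feedback cultures.

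Relative to uncontrolled cultures, Apex1 was higher by 2.39 ± 0.45 (log2, SE) under paradoxical feedback, with an edgeR adjusted p of 0.0124. Under negative feedback it was higher by 2.12 ± 0.44 (log2, SE), with an edgeR adjusted p of 0.0236. The negative feedback value was 0.76 and no longer called without cultures 3 to 7 (edgeR adjusted p = 1.00), and the paradoxical feedback value stayed at 2.40. Without uncontrolled culture 2 the paradoxical feedback call was lost (edgeR adjusted p = 0.0542), and without any 1 uncontrolled culture the negative feedback call was lost. The short-target covariate left the paradoxical feedback value at 1.87 (edgeR adjusted p = 0.0112) and the negative feedback value at 1.09 (edgeR adjusted p = 0.631).

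Xrcc1, the scaffold that PARP1 recruits, was not called in either comparison. Its mean ± SD was 67.2 ± 15.4 CPM in the 7 paradoxical feedback cultures, 46.4 ± 7.99 CPM in the 7 negative feedback cultures and 52.3 ± 7.64 CPM in the 4 uncontrolled cultures, with 49.1 CPM in the parental library. The single cultures ran from 44.6 in culture 4 to 94.0 CPM in culture 3 under paradoxical feedback, from 37.7 to 61.1 CPM under negative feedback and from 45.3 to 63.2 CPM in uncontrolled cultures, so all 3 ranges overlapped. Its log2 fold change over uncontrolled cultures was 0.36 ± 0.18 under paradoxical feedback (SE, edgeR adjusted p = 0.219) and -0.17 ± 0.18 under negative feedback (SE, edgeR adjusted p = 0.517). The negative feedback value was 0.07 without cultures 3 to 7, and 0.07 in TPM with all of them, so its sign depended on both.

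Because PARP1 and XRCC1 act together, the ratio of their TPM values was taken in each library as a description. Parp1 over Xrcc1 was 1.05 to 1.78 under paradoxical feedback, 0.763 and 0.855 for cultures 1 and 2 of negative feedback, 2.31 to 3.13 for cultures 3 to 7, 0.645 to 0.844 in uncontrolled cultures and 1.27 in the parental library. Negative feedback cultures 3 to 7 had the highest ratios of all 19 libraries, above every paradoxical feedback culture.

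**Figure D2:**
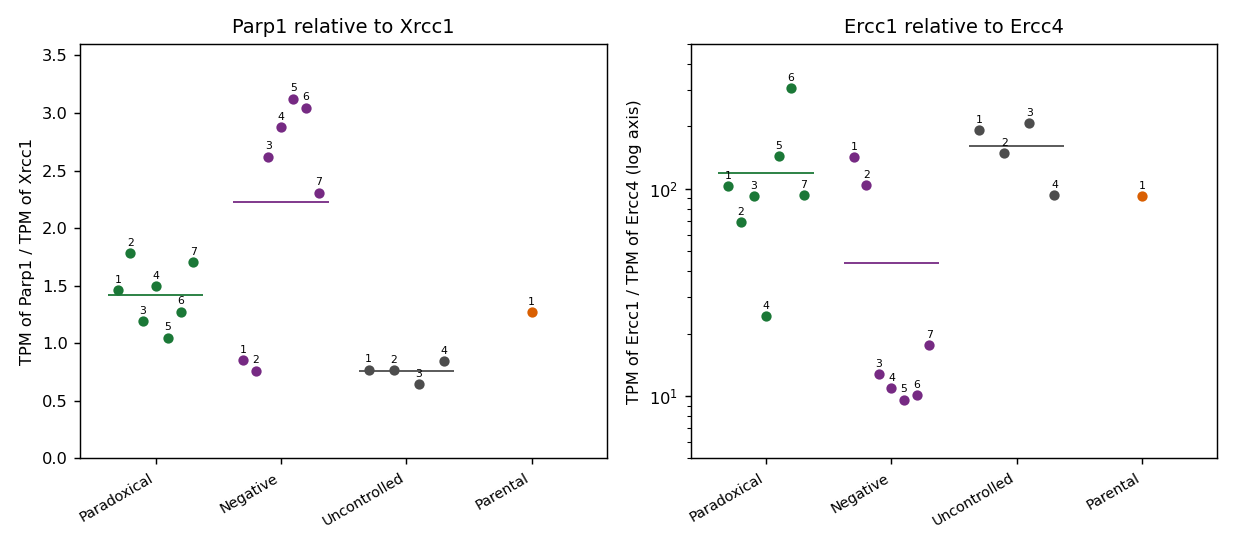
Ratio of TPM values between partner genes in every library (vertical axes, the right one on a log scale) by culture condition (horizontal axes), each point 1 library. Parp1 over Xrcc1 was highest and Ercc1 over Ercc4 lowest in negative feedback cultures 3 to 7, at 2.31 to 3.13 and 9.61 to 17.7.

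Ercc4 and Ercc1 encode the subunits of one nuclease, and their RNA levels did not follow each other. Ercc4, the catalytic subunit, had 1.86, 3.03, 3.35, 5.79, 2.64, 1.44 and 2.89 CPM under paradoxical feedback. Under negative feedback it had 1.43 and 1.75 CPM in cultures 1 and 2 and 13.8, 14.1, 13.7, 15.5 and 10.7 CPM in cultures 3 to 7. The uncontrolled cultures had 0.987, 1.23, 1.03 and 1.86 CPM, and the parental library had 2.43 CPM. Cultures 3 to 7 lay far above every other library, and cultures 1 and 2 lay inside the uncontrolled range.

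Ercc4 was higher by 2.98 ± 0.67 under negative feedback than in uncontrolled cultures (log2, SE, edgeR adjusted p = 0.0236), and by 0.32 without cultures 3 to 7 (edgeR adjusted p = 1.00). The paradoxical feedback value over uncontrolled cultures was 1.23 ± 0.61 (log2, SE) and was not called (edgeR adjusted p = 0.216), with 5 of 7 cultures above the highest uncontrolled culture. The negative feedback call was also lost when any 1 uncontrolled culture was left out, under the short-target covariate (0.82, edgeR adjusted p = 0.791), in limma-voom (2.59, adjusted p = 0.0524), and with only the groups compared in the fit (2.96, edgeR adjusted p = 0.0798).

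Ercc1 showed no call in either comparison. It had 50.2, 55.1, 81.5, 37.1, 99.95, 116 and 71.0 CPM under paradoxical feedback, 34.7 to 53.4 CPM with a median of 46.5 CPM under negative feedback, and 50.0, 48.2, 55.8 and 45.6 CPM in uncontrolled cultures. The parental library had 58.8 CPM. The paradoxical feedback cultures were the most spread, with cultures 5 and 6 highest and culture 4 below every uncontrolled culture. The log2 fold changes over uncontrolled cultures were 0.55 ± 0.25 under paradoxical feedback (SE, edgeR adjusted p = 0.171) and -0.16 ± 0.24 under negative feedback (SE, edgeR adjusted p = 0.674), and the negative feedback value was 0.10 in TPM and 0.02 without cultures 3 to 7.

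The TPM ratio of Ercc1 over Ercc4 was 24.4 to 306 with a median of 93.6 under paradoxical feedback, 104 and 142 for cultures 1 and 2 of negative feedback, 9.61 to 17.7 for cultures 3 to 7, 93.2 to 207 in uncontrolled cultures and 92.0 in the parental library. Ercc1 RNA exceeded that of its partner in all 19 libraries, by the smallest factor in negative feedback cultures 3 to 7. Those cultures had 136 to 182 estimated counts of Ercc4. The other libraries had few, from 12 in uncontrolled culture 1 to 75 in paradoxical feedback culture 4. Paradoxical feedback culture 6, with the ratio of 306, had 15. The part of these low counts in the spread of the ratio was not tested.

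Xrcc5, the Ku80 subunit, varied least over the 19 libraries, with a coefficient of variation of 17.8%. It had 28.4 to 37.3 CPM with a median of 32.0 CPM under paradoxical feedback, 30.5 and 34.8 CPM in negative feedback cultures 1 and 2, 22.9, 23.7, 20.0, 21.6 and 26.01 CPM in cultures 3 to 7, and 32.1, 34.2, 37.5 and 32.1 CPM in uncontrolled cultures. The parental library had 34.5 CPM. In CPM, negative feedback cultures 3 to 7 were the 5 lowest of all 19 libraries. In TPM this separation was gone, with 13.8 to 17.1 in cultures 3 to 7 and 14.4 and 17.8 in cultures 1 and 2. The effective length of a target was the same in all 19 libraries. For a single gene, TPM and CPM therefore differ between libraries only in the scaling of each library. The log2 fold changes over uncontrolled cultures were -0.06 ± 0.16 under paradoxical feedback (SE, edgeR adjusted p = 0.880) and -0.41 ± 0.16 under negative feedback (SE, edgeR adjusted p = 0.101), the negative feedback value being -0.06 without cultures 3 to 7.

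Atr, the replication stress kinase, had 57.4, 53.9, 52.7, 39.4, 48.3, 53.7 and 54.6 CPM under paradoxical feedback. Negative feedback cultures 1 and 2 had 35.0 and 30.9 CPM, and cultures 3 to 7 had 81.9, 82.3, 93.0, 86.0 and 65.5 CPM. The uncontrolled cultures had 44.0, 42.0, 44.4 and 32.0 CPM, and the parental library had 36.5 CPM. Cultures 3 to 7 again lay above all other libraries, and culture 2 lay below every uncontrolled culture. The log2 fold changes over uncontrolled cultures were 0.34 ± 0.26 under paradoxical feedback (SE, edgeR adjusted p = 0.436) and 0.74 ± 0.26 under negative feedback (SE, edgeR adjusted p = 0.0776), and the negative feedback value turned to -0.30 without cultures 3 to 7 (edgeR adjusted p = 1.00).

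**Figure D3:**
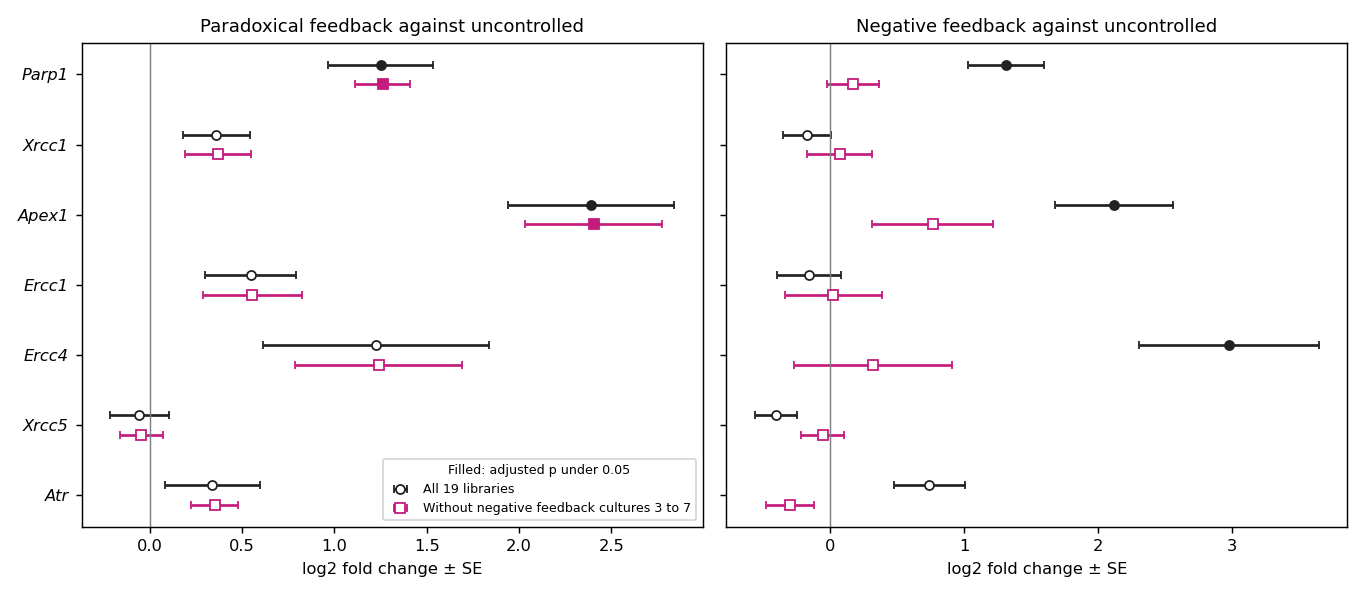
Log2 fold change with SE (horizontal axes) of each of the 7 genes (vertical axis) against uncontrolled cultures, in the fit of all libraries and in the fit without negative feedback cultures 3 to 7. Without those cultures the negative feedback values of Parp1 and Ercc4 were 0.17 and 0.32, while the paradoxical feedback values of Parp1 and Apex1 were 1.26 and 2.40.

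Levels were also set beside the share of short targets. Negative feedback cultures 3 to 7 had the lowest shares of all 19 libraries, at 6.12 to 7.22%. They also had the highest Parp1, Ercc4 and Atr and, in CPM but not in TPM, the lowest Xrcc5. For Parp1 the margin was narrow, at 196 CPM or more against at most 193 CPM in the other libraries. The part of RNA length in these levels was not tested. A fit with that share as a covariate cannot isolate it, because the share itself separates cultures 3 to 7 from the others. In that fit no gene of the 7 was called under negative feedback, where 6 of all 28555 tested targets were. Parp1 and Apex1 were called under paradoxical feedback, where 1145 of the tested targets were.

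**Figure D4:**
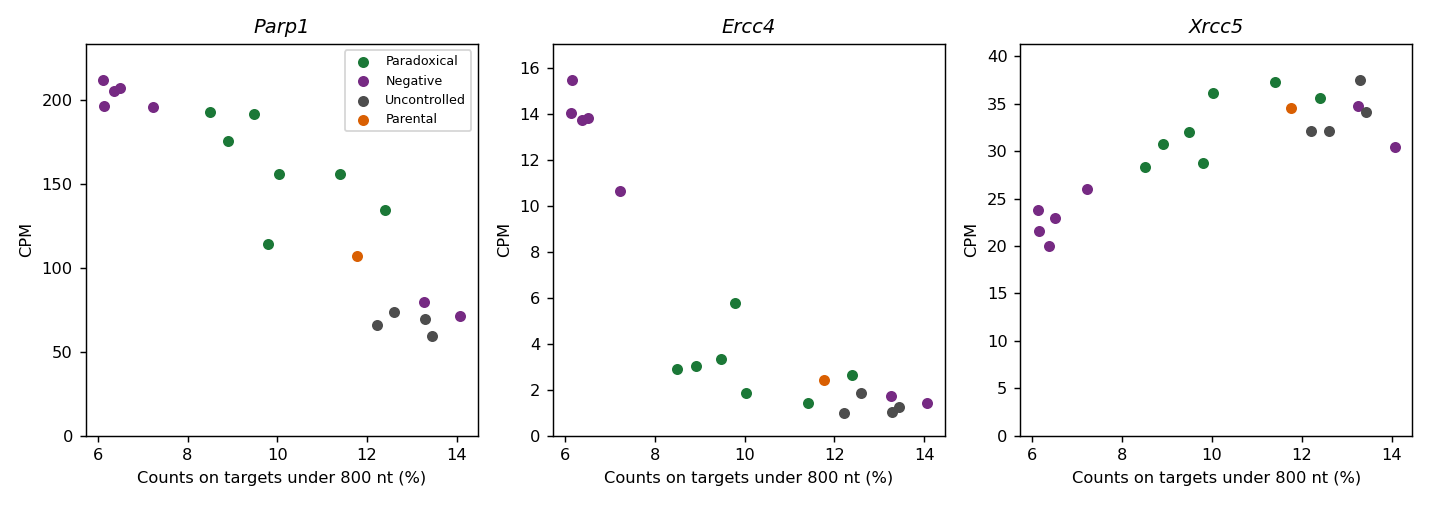
CPM of Parp1, Ercc4 and Xrcc5 (vertical axes) against the percentage of counts on targets under 800 nt (horizontal axes), each point 1 library, marked by condition. Negative feedback cultures 3 to 7 form a group at 6.12 to 7.22%, with high Parp1 and Ercc4 and low Xrcc5.

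Between the feedback conditions no gene of the 7 was called, against 0.27% of all tested targets. An unadjusted p under 0.05 in edgeR was found for 4 of the 7 and for 5033 of 28555 tested targets. DESeq2 called 3, with Ercc4 lower and Xrcc1 and Ercc1 higher under paradoxical feedback, and limma-voom called 0. Of 28555 tested targets DESeq2 called 1794 here and limma-voom 297. Ercc4 averaged 3.00 ± 1.40 CPM under paradoxical feedback and 10.1 ± 6.01 CPM under negative feedback (SD, n = 7 each), a log2 fold change of -1.75 ± 0.51 (SE, edgeR adjusted p = 0.108) that was 0.92 without negative feedback cultures 3 to 7. The values for Ercc1 and Xrcc1 were 0.70 ± 0.21 and 0.54 ± 0.15 (log2, SE, edgeR adjusted p = 0.110 and 0.104). No gene of the 7 had separate ranges between these conditions, where 0.403% of tested targets lay wholly above and 0.182% wholly below. Against negative feedback cultures 1 and 2 alone, Parp1 was higher under paradoxical feedback by 1.09 (edgeR adjusted p = 0.00653) and Atr by 0.65 (edgeR adjusted p = 0.0349). In this comparison 2454 of 27303 tested targets were called. Cultures 1 and 2 were set apart from these same data, so these p-values are no independent test.

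Against the parental cells, represented by 1 library that the fit assumes would vary like the cultures, no gene of the 7 was called by edgeR, DESeq2 or limma-voom, and 0 had an unadjusted p under 0.05 in edgeR. Of all 28555 tested targets 0.0175% were called, and 636 had an unadjusted p under 0.05 in edgeR. The log2 fold changes of the mean of the 3 long-term groups ran from -0.18 for Xrcc5 to 0.51 for Atr. For Parp1 and Apex1 the parental library lay above every uncontrolled culture and below every paradoxical feedback culture.

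The wider set of repair, checkpoint and damage response genes was a list of 175 further symbols, of which 8 matched a target, and all 8 were tested. Under paradoxical feedback 4 of the 8 were called higher than in uncontrolled cultures and 0 lower. Of all tested targets 4.93% were called higher there, and 19.7% of the named protein-coding targets. Under negative feedback 3 of the 8 were called higher and 0 lower, against 8.65% of all tested targets and 28.2% of the named ones called higher. The median log2 fold change over uncontrolled cultures was 1.60 for these 8 genes under paradoxical feedback, 0.55 for the 7 repair genes, 0.55 for the named protein-coding targets and 0.02 for all tested targets. Under negative feedback the medians were 1.57, 0.74, 0.44 and 0.04 in the same order. Without cultures 3 to 7 the negative feedback medians were 0 for the 7 of these 8 genes tested in that fit, 0.07 for the 7 repair genes and -0.01 for all tested targets. That median of 0 is the value of Rad52, which was at 0 CPM in negative feedback cultures 1 and 2 and in every uncontrolled culture. The median of the list was 1.55 under paradoxical and 1.02 under negative feedback with Rad52, at 0 in every uncontrolled culture, set at its bound against a floor of 3 counts per library, and with Rad51c left out where it was at or under the floor.

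Pcna, the sliding clamp of replication and repair, had 151 to 360 CPM under paradoxical feedback, 75.6 to 264 CPM under negative feedback and 62.4 to 115 CPM in uncontrolled cultures, with 196 CPM in the parental library. Its log2 fold change over uncontrolled cultures was 1.55 ± 0.33 under paradoxical feedback (SE, edgeR adjusted p = 0.0168), and 1.02 ± 0.32 under negative feedback, which was not called (SE, edgeR adjusted p = 0.0506) and was -0.05 without cultures 3 to 7. The paradoxical feedback call was lost without uncontrolled culture 1 or 2 (edgeR adjusted p = 0.0696 and 0.0630). Ercc3, the XPB helicase that opens DNA in nucleotide excision repair, was called in both, at 0.94 ± 0.23 under paradoxical feedback (edgeR adjusted p = 0.0242) and 0.87 ± 0.22 under negative feedback (edgeR adjusted p = 0.0273). Without cultures 3 to 7 its negative feedback value was 0.01. Leaving out any 1 uncontrolled culture ended both Ercc3 calls, with edgeR adjusted p-values of 0.0529 to 0.0817 for paradoxical and 0.0654 to 0.0848 for negative feedback. The negative feedback call was also lost without any 1 of cultures 3 to 6, with the covariate (0.24) and with only the groups compared (edgeR adjusted p = 0.0819). Its 7 paradoxical feedback cultures, at 39.9 to 51.2 CPM, lay above the uncontrolled cultures at 21.2 to 25.5 CPM. Fancg, of the Fanconi core complex, was called under paradoxical feedback at 1.12 ± 0.30 (edgeR adjusted p = 0.0358). It was 0.91 ± 0.30 under negative feedback (edgeR adjusted p = 0.0579) and -0.13 there without cultures 3 to 7, and the difference between the feedback conditions was not called. The paradoxical feedback call of Fancg was lost without any 1 uncontrolled culture, without paradoxical feedback culture 3, 5, 6 or 7 (edgeR adjusted p = 0.0524 to 0.109 over these fits), under library size alone (0.0569) and with the covariate (0.0646).

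Bax, a pro-apoptotic member of the Bcl-2 family, had 55.3 to 77.3 CPM under paradoxical feedback against 102 to 130 CPM in uncontrolled cultures, with no overlap (8.35% of the tested targets lay wholly below uncontrolled cultures in this way), and its log2 fold change of -0.86 ± 0.36 was not called (edgeR adjusted p = 0.144). Under negative feedback Bax had 143 and 124 CPM in cultures 1 and 2 and 33.5 to 44.4 CPM in cultures 3 to 7. Its log2 fold change over uncontrolled cultures was -0.87 under negative feedback (edgeR adjusted p = 0.116) and 0.15 without cultures 3 to 7. Limma-voom called Bax lower under negative feedback (-1.15, adjusted p = 0.0239), where it called 3402 of 28555 tested targets lower. In edgeR, 2 of 18 fits with 1 library left out called it there too. Under paradoxical feedback Bax was called lower with only the groups compared in the fit (edgeR adjusted p = 0.00111).

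The phosphatases Cdc25a and Cdc25b activate the cyclin-dependent kinases that checkpoints restrain. Cdc25b was called in both comparisons, at 1.93 ± 0.43 under paradoxical feedback (edgeR adjusted p = 0.0197) and 2.12 ± 0.43 under negative feedback (edgeR adjusted p = 0.0236), or 0.26 without cultures 3 to 7. The paradoxical feedback call of Cdc25b was lost without uncontrolled culture 1, 2 or 3 (edgeR adjusted p = 0.0533 to 0.0737) and in limma-voom (adjusted p = 0.0642). Its negative feedback call was lost without any 1 uncontrolled culture (edgeR adjusted p = 0.0525 to 0.0774), with the covariate (0.66) and with only the groups compared (edgeR adjusted p = 0.0798). Cdc25a was called under negative feedback at 2.94 ± 0.78 (edgeR adjusted p = 0.0290) and was 2.13 ± 0.74 under paradoxical feedback (edgeR adjusted p = 0.0872). Without cultures 3 to 7 the negative feedback value of Cdc25a was -0.42. In that fit 0 of the wider genes were called under negative feedback, and 13 of 27303 tested targets. The Cdc25a call was also lost without any 1 uncontrolled culture or any 1 of cultures 3 to 6 (edgeR adjusted p = 0.0517 to 0.0921). Rad51c and Rad52, which act in homologous recombination and have shared reads, were low throughout. Rad51c had 0 to 0.885 CPM, and Rad52 had 0 to 4.09 CPM under paradoxical feedback, 1.37 to 4.15 CPM in negative feedback cultures 3 to 7 and 0 in cultures 1 and 2, in all uncontrolled cultures and in the parental library.

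**Figure D5:**
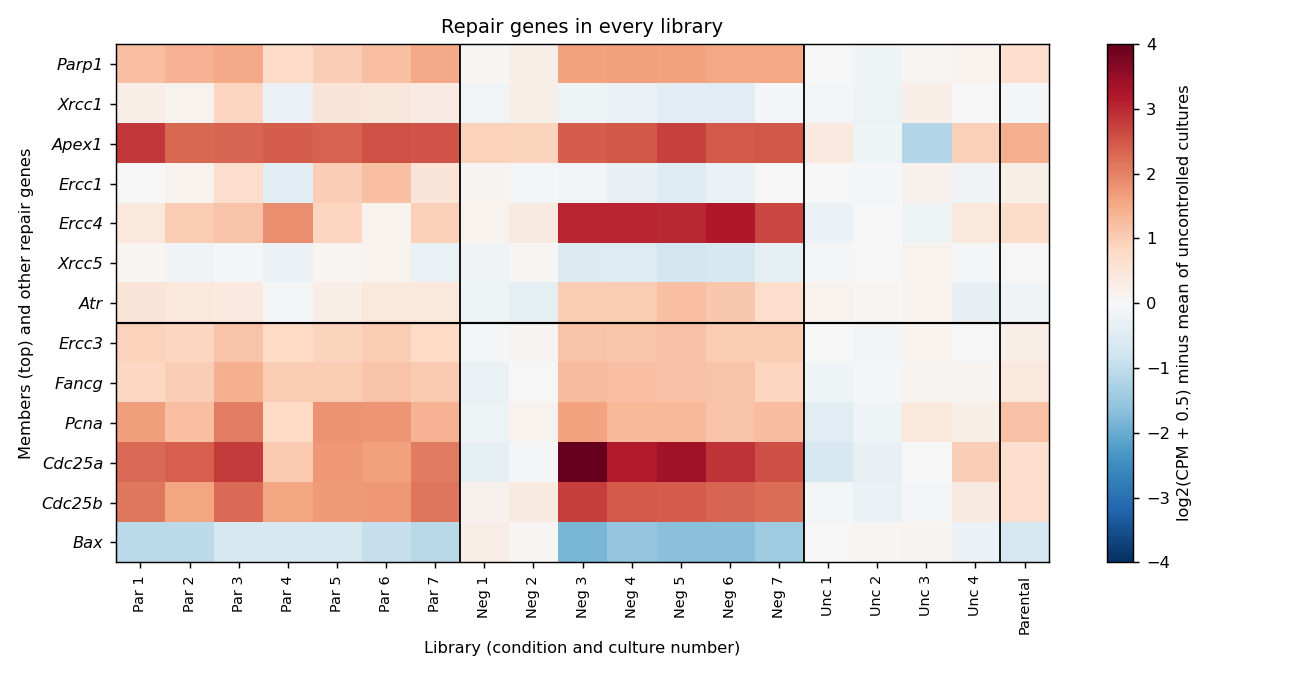
Log2(CPM + 0.5) of the 7 repair genes (upper block) and 6 other tested repair and checkpoint genes (lower block) in every library (columns, grouped by condition), as the difference from the mean of the uncontrolled cultures (colour). Red is higher and blue lower, and Ercc4 and Cdc25a stand out in negative feedback cultures 3 to 7.

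The genes whose pattern was most like each of the 7 were read from 236 named targets, by Pearson's r of log2 CPM over the 19 libraries, as a description without a test. The libraries fall into separate groups that differ in the share of short targets, whose part in r was not tested. Parp1 was most like Cdc25b (r = 0.98) and Cdk2 (r = 0.98), and these stood at 0.97 and 0.96 over the 14 libraries without negative feedback cultures 3 to 7. Apex1 was most like Ap3m1 (0.94), which has shared reads, and Adk (0.94). Ercc4 was most like Edem1 (0.98) and Gna13 (0.97), and Atr was most like Mbtps1 and Gosr1, at 0.92 and 0.91 over 19 libraries and 0.70 and 0.68 over 14. Xrcc1 and Ercc1 were both most like Cdc45 (0.91 and 0.85), which has shared reads, with Aimp2 (0.82) next for Xrcc1 and Oaz1 (0.84) for Ercc1. Xrcc5 was most like Rps14 (0.90) and Taldo1 (0.88), and the value for Taldo1 was 0.06 over the 14 libraries.

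Among the 7 genes themselves, Apex1 and Parp1 had an r of 0.88 over 19 libraries and 0.87 over 14. Xrcc1 and Ercc1 had 0.83 and 0.76. Ercc4 and Xrcc5 had -0.90 and -0.56, Ercc1 and Ercc4 had -0.45 and -0.02, and Parp1 and Xrcc1 had 0.02 and 0.65.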

How the data were processed

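Polyadenylated RNA of 19 libraries was sequenced by the authors. The labels' protocols give 2 days of culture, under 80% confluent, a Qiagen RNA kit and NEBNext Ultra II libraries. Trim Galore and kallisto are named in the submitters' processing notes. Their versions and the index build are not stated there, so no coordinates are printed. The deposited estimated counts are reads assigned to each transcript target, divided where a read matched several, and the deposited TPM values scale them by effective length. Names came from RefSeq accessions through a gene table of another assembly. Transcripts of the same genes under unmatched accessions are not included.

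Estimated counts were rounded, filtered with filterByExpr and TMM-normalised, and all 19 libraries were fitted by culture condition with edgeR 4.0.16 in R 4.3.3, by the quasi-likelihood test. SE is the log2 fold change divided by the square root of F. A count was called whole within 1e-06. Alternatives used DESeq2, limma-voom, other scalings, filters and left-out libraries. TPM was used to compare levels between genes, and as another scaling of single genes between libraries. Genes named beyond the 7 are every tested member of the wider list, except some that are not reported here, and, for each of the 7, the 2 named targets with the highest r among those whose log2 CPM averaged 1 or more. The genes and lists were chosen with earlier results of these data known. The labels do not say that cultures were kept apart, so a p-value measures only how far these samples spread, which may be technical. The smallest chi-square per target between libraries of a group was 1.84, for negative feedback cultures 4 and 6, and all libraries were counted as separate.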

Additional observations from a re-analysis of the deposited data

Results flagged for a closer look

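Of 44 groups of 4 to 7 libraries examined, 3 had a library far from the others, where chance gives about 1 in 20. Apex1 had 33.9 CPM in paradoxical feedback culture 1, with the nearest culture at 27.5 CPM. Rad51c had 0.625 CPM in paradoxical feedback culture 1 and 0.0726 CPM in uncontrolled culture 2, with 0 in the other cultures of each condition, so the gap equals the range by construction, and the uncontrolled value is 0.766 of an estimated count, under the floor of 3. No explanation was tested.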

How the results depend on the processing

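Counts are ordered by comparison: first negative feedback and second paradoxical feedback, each against uncontrolled cultures, the third paradoxical against negative feedback cultures, the fourth long-term cultures against parental cells. In edgeR over all libraries, 2787, 1835, 77 and 5 of all tested targets were called, 3, 2, 0 and 0 of the 7 repair genes, and 3, 4, 0 and 0 of the 8 wider genes. DESeq2 called 6436, 4823, 1794 and 298 targets, 5, 2, 3 and 0 of the 7 genes, and 6 of the wider genes in the first comparison. Limma-voom called 5039 targets in the first, 297 in the third and 100 in the fourth. Of its calls in the first, 1637 were higher and 3402 lower, against 2470 and 317 in edgeR. With only the groups compared in the fit, 10, 4956 and 0 targets were called in the first 3 comparisons, with 0 of the 7 and 0 of the wider genes in the first. With the short-target share as a covariate the calls were 6, 1145, 697 and 12 targets, 0 of the 7 and 0 of the wider genes in the first comparison. In the third comparison DESeq2 size factors gave 11 targets, library size alone 42 and no filter 2.

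Whether replicate numbers pair the samples was not settled: correlations of same-numbered deviations ran from -0.156 to 0.107. Some libraries matched their own number best and others did not. With the replicate block 4, 3, 0 and 0 targets were called, with 0 of the 7 and 0 of the wider genes. The block gave log2 values of 0.016 for Parp1 in the third comparison, and -0.58 for Ercc4 and -0.17 for Parp1 in the fourth, each of the other sign.

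Without negative feedback cultures 3 to 7 the calls were 13, 4926, 2454 and 8 targets, 0 of the 7 and 0 of the wider genes in the first comparison, and 2 and 6 in the third. Log2 values then changed sign in the first comparison for Bax (0.15), Fancg (-0.13), Xrcc1 (0.071), Pcna (-0.053), Ercc1 (0.021), Atr (-0.30) and Cdc25a (-0.42), in the third for Ercc4 (0.92), Parp1 (1.09) and Atr (0.65), and in the fourth for Ercc4 (-0.41), Apex1 (-0.30) and Parp1 (-0.20). The covariate changed the sign in the first comparison for Xrcc1 (0.036), Ercc1 (0.14) and Atr (-0.049), in the second for Xrcc5 (0.15) and Atr (-0.094), in the third for Parp1 (0.34), and in the fourth for Ercc4 (-0.17), Apex1 (-0.16) and Parp1 (-0.093). Parp1 in the third comparison was also 0.023 in limma-voom, between -0.192 and 0.0070 with 1 library left out, 0.0061 without negative feedback replicate 4 and 0.0070 without paradoxical feedback replicate 4. The cause of these changes was not tested.

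Leaving out 1 library gave 7 to 6938, 127 to 3204, 0 to 989 and 5 to 11 targets, 0 to 5, 0 to 2, 0 to 2 and 0 to 0 of the 7 genes, and 0 to 7, 0 to 5, 0 to 0 and 0 to 0 of the wider genes. The highest count of the 7 genes in the first comparison came without negative feedback culture 1 or 2, where Atr and Xrcc5 were called too. The difference in short-target share was -3.04 percentage points in the second comparison with the limit at 1000 nt, no longer past the threshold. Without cultures 3 to 7 it was 0.781 points in the first comparison and -3.59 in the third. Leaving out 1 library, tried after the data were seen, gave -5.28 to -3.95, -3.20 to -2.55 and 1.14 to 2.47 points.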
